A study of Mus musculus with 6 samples.

Results

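Complement in mouse microglia was described here through 9 genes of 54532 in the deposited table, each taken by its gene name: the central component C3, the 3 chains of C1q (C1qa, C1qb and C1qc), factor B (Cfb), properdin (Cfp), and the anaphylatoxin receptors C3ar1, C5ar1 and C5ar2. RNA-seq was performed on N9 microglia, an immortalized cell line derived from mouse brain, and all groups share that line. The 3 control libraries came from untreated cells. The 3 LPS libraries came from cells given lipopolysaccharide (LPS), a bacterial cell-wall molecule that cells sense through TLR4, at 1 µg/ml for 6 h. The labels do not say whether replicates were separate cultures, so p-values measure at most the spread between these libraries, which may be technical.

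Complement is a cascade of plasma and locally made proteins that tags targets and calls phagocytes to them. C1q binds antibody or other patterns and starts the classical pathway, whereas factor B and properdin build and stabilise the C3-cleaving enzyme of the alternative pathway, and both routes meet at C3. Cleavage releases C3a and C5a, which act on C3ar1 and on C5ar1 and C5ar2, while the larger C3 fragments bind to the target and are read by integrin receptors. In brain, microglia are known as the main source of C1q, and C1q and C3 are known for tagging synapses that microglia remove.

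The libraries held between 16363767 and 17956772 counts, of which the 9 genes took from 4741 to 5835. The LPS response gene Tnf, whose direction matches the labels, was at 15.8 ± 1.51 CPM in control cells and 233 ± 4.37 CPM with LPS (CPM, counts scaled to the TMM-normalized library size, SD, n = 3). Of 13 microglia and macrophage markers, 12 had more than 3 counts in every library, but P2ry12, a marker of resting microglia, had only 3 to 6 and Aif1 only 4 to 9. A list of 5 astrocyte markers summed to 27.9 to 29.9 CPM in control libraries and 21.5 to 25.2 CPM in LPS libraries. Most of this was Aldh1l1, at group means of 28.3 and 23.1 CPM. Lists of neuron and of T and B cell markers summed to at most 0.634 CPM in any library. Control replicates 2 and 3 stood apart in markers of liver cells: 12 hepatocyte markers summed to 16.3 and 25.6 CPM there, against 0.234 CPM in control replicate 1 and 0.127, 0.244 and 0.548 CPM in the LPS libraries, in each of which 11 of the 12 were at 0. Hepatocytes are a main source of plasma complement. The fitted log2 fold changes of C3, the C1q chains, C5ar1, C5ar2 and Lrp1 are therefore also given without control replicates 2 and 3. For most other genes that fit is not listed, and some of these also moved, such as Itgax (0.19 to 0.29) and Itgam (-0.26 to -0.32). In a bulk sample, fewer cells that express a gene and less RNA per cell cannot be told apart.

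Promoter windows are shown for C3 and Cfp, well-counted genes that moved in opposite directions, and for C1qb and C1qc, neighbours on chromosome 4 with few reads and similar ratios between groups. RefSeq windows on GRCm38.p6 were found for 7 of the 9 genes, the other 2 being C1qa and Cfb. All are on the minus strand, and the 250 bases before the annotated start are printed 5′ to 3′. Capitals mark matches, on either strand, to simple patterns for C/EBP (TTNNGNAA), GAS (TTCNNNGAA), AP-1 (TGANTCA), PU.1 (AGGAAGT) and the TATA box (TATAAA), and to NF-kB and ISRE patterns, searched from 250 bases before to 50 after the start.
C3, chr17:57228137-57228386: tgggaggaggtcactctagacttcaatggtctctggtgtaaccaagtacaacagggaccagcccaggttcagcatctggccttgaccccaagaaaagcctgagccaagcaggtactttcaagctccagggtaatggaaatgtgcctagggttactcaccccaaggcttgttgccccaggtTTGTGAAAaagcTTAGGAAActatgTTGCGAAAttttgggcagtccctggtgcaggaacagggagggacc
Cfp, chrX:20931556-20931805: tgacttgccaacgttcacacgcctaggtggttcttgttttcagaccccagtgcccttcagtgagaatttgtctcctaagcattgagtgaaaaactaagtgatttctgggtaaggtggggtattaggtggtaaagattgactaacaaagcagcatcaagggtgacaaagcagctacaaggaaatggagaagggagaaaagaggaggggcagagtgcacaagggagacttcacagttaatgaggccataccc
C1qb, chr4:136886201-136886450: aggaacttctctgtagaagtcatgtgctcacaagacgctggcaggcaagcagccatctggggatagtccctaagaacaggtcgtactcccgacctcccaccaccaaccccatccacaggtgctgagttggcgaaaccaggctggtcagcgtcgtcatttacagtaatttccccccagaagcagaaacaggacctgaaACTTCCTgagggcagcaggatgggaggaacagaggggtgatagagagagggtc
C1qc, chr4:136892915-136893164: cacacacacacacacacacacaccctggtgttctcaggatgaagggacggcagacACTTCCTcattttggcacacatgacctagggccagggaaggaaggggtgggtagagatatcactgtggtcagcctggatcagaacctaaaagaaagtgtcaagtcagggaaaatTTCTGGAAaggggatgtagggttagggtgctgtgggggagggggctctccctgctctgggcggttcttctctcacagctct

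The C3 window had the C/EBP pattern at 3 places, beginning at -70, -58 and -45 relative to the start, the last of them on both strands. At least 3 such places occurred in 3.6% of the 32851 windows in the table, and at least 1 in 40.7%. The C3 window also had TATAAA, which 13.6% of windows hold, from base 15 after the annotated start. No pattern occurred in the Cfp window. The PU.1 pattern, found in 9.4% of windows, occurred in those of C1qb and C1qc, at 2 places in that of C5ar1, and in that of C5ar2 at the upstream of its 2 starts. The C3ar1 window had an NF-kB match beginning at -14, a pattern in 1.6% of windows, with an AP-1 match (7.8% of windows) just before it. That window also had TATAAA, beginning at -235. C/EBP matches also lay in the windows of C1qc, C5ar1 and both starts of C5ar2. Apart from the C3 place matched on both strands, no matches overlapped. The RefSeq start lay 202 bases from the deposited gene start for C5ar1, 151 for C1qc and 1823 for the other start of C5ar2, and from 0 to 13 for the rest. These matches describe letters and not bound sites.

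In LPS-stimulated versus control N9 microglia, C3 and C5ar1 were up-regulated, Cfp was down-regulated, and C3ar1 and C5ar2 did not pass the test. C1qb was called lower by edgeR's main test, but it passed the filter on low counts through its control libraries alone. Without that filter edgeR did not call C1qb (adjusted p = 0.0679). Properdin and the receptors C3ar1 and C5ar1 were well expressed in both groups, and C3 was within 2-fold of them per length only with LPS. C1q and factor B had few reads, and C5ar2 had 17 to 41 per library. Of the 9 genes, 6 passed edgeR's filter on low counts and were tested. Of these 6, 4 had an adjusted p under 0.05, 2 higher and 2 lower with LPS, where 34.3% of all 12296 tested genes were called, 18.7% higher and 15.7% lower. The study's further threshold for a differentially expressed gene (DEG) was an absolute log2 fold change over 1.5. C3 was a DEG, as were 2.65% of all tested genes (2.40% higher and 0.252% lower). C1qb also passed this threshold, under the limit that its filter sets. C1qb was called in 6 of 13 alternative fits and not by DESeq2 (adjusted p = 0.123), C3 fell below 1.5 without control replicate 1, and DESeq2 also made Cfb a DEG (3.59, adjusted p = 0.041). Over all 9 genes, the libraries of the groups did not overlap for 3 that were higher with LPS (C3, Cfb and C5ar1). Another 4 were lower in this way (Cfp and the C1q chains). Of these genes, Cfb, C1qa and C1qc were not tested. Among the 6 tested genes, C3 and C5ar1 were higher without overlap and Cfp and C1qb lower. The shares among all tested genes were 23.7% higher and 21.5% lower. The median log2 fold change of the 6 was -0.18, beside 0.00 over all tested genes.

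**Figure D1:**
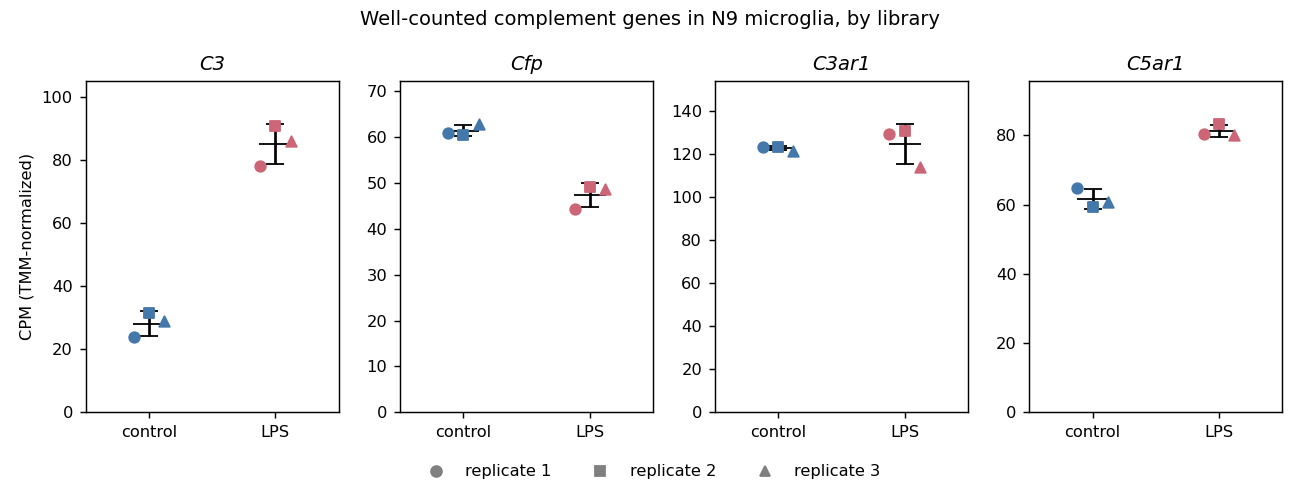
Level of C3, Cfp, C3ar1 and C5ar1 (CPM, axis from 0) in the 3 control and 3 LPS libraries, with symbols for replicate numbers, a horizontal mark for the mean and bars for the SD. C3 and C5ar1 lie higher in every LPS library, Cfp lies lower, and C3ar1 overlaps between the groups.

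C3 (ENSMUSG00000024164, chromosome 17 of GRCm38, 57203970 to 57228136, minus strand) encodes the protein on which all activation routes converge. Counts were 409, 558 and 540 in control replicates 1 to 3 and 1235, 1490 and 1416 in LPS replicates 1 to 3, or 23.9, 31.6 and 29.1 CPM against 78.3, 90.9 and 86.2 CPM. The lowest LPS library was thus well above the highest control library. The increase was 3.02-fold, a log2 fold change of 1.59 with a 95% confidence interval from 1.41 to 1.78 (edgeR adjusted p = 1.68e-09). The interval includes the DEG threshold of 1.5. Without control replicate 1, the lowest library, C3 stood at 1.48 and was not a DEG, although its edgeR adjusted p was 3.38e-10. Without control replicates 2 and 3, which held the hepatocyte-marker reads, it stood at 1.84. That fit compares with control replicate 1 alone, the lowest library for C3, and the part of the liver-cell markers was not tested. Of the tested genes, 2.23% had a larger log2 fold change than C3.

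The genes whose profile over the 6 libraries lay nearest to that of C3, each centred on its own mean on the log2 scale, were Mitd1, Itga5 and Daxx, out of 10458 genes averaging 50 or more counts. Their Euclidean distances from C3 were 0.181, 0.211 and 0.235, against a median distance of 2.00 for all others. Mitd1 had 8.81, 11.6 and 10.1 CPM in control cells and 29.2, 37.3 and 33.7 CPM with LPS. Like C3, it was lowest in replicate 1 and highest in replicate 2 of each group. With 2 groups, the distance reflects mainly the size of the difference between them.

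Properdin, encoded by Cfp (ENSMUSG00000001128, chromosome X, 20925454 to 20931555, minus strand), is the known positive regulator of the alternative pathway. It was the most abundant of the 9 genes per length in control cells. Cfp was at 61.0, 60.4 and 62.8 CPM in control cells and at 44.4, 49.1 and 48.7 CPM in LPS cells, and the groups did not overlap. It fell by 0.37 on the log2 scale (95% confidence interval -0.50 to -0.25, edgeR adjusted p = 0.000137). All 14 alternative fits other than the test against a log2 fold change of 1.5 called it, from -0.40 to -0.33.

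Factor B, encoded by Cfb (ENSMUSG00000090231, chromosome 17, 34856374 to 34862518, minus strand), supplies the protease of the alternative pathway convertase. It had 0, 1 and 1 counts in control cells and 7, 5 and 10 in LPS cells. These counts did not overlap but were too few for the filter. Both control counts lay in control replicates 2 and 3, and control replicate 1 alone, at 0, gives no ratio. The summed counts gave a ratio of LPS over control of 12.1, with an exact 95% interval from 2.97 to 106 that covers counting error only. Without the filter, edgeR called Cfb higher (adjusted p = 0.0145), as did DESeq2 (adjusted p = 0.041). In GENCODE release M21, 2246 of the 2825 exon bases of Cfb (79.5%) are shared with Gm20547, a gene model on the same strand that reaches into the C2 gene, and Gm20547 had 0 counts in every library. A counter that sets aside reads matching more than 1 gene would count Cfb from the other 579 bases alone, and whether this was done is not given in the sources used here. Per kb of these 579 bases, Cfb was at 0.0636 CPM in control and 0.782 CPM in LPS cells, in place of 0.013 and 0.16 CPM per kb of its full length. The level of Cfb is therefore uncertain. No exon base of C3, Cfp, C3ar1, C5ar1 or the C1q chains is shared with another gene there.

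**Figure D2:**
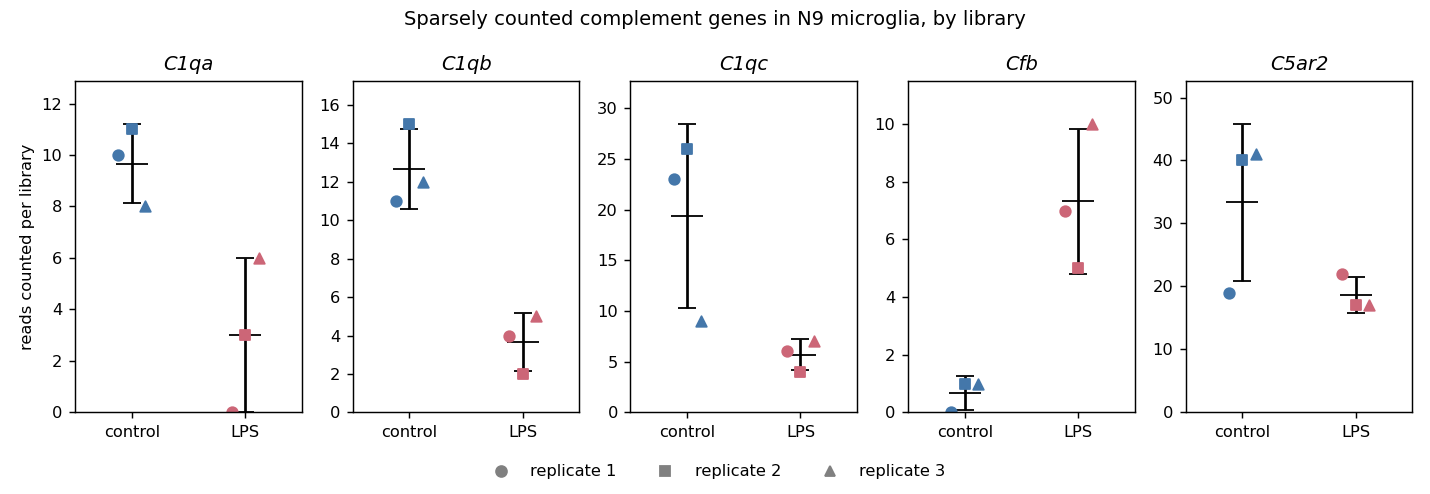
Reads counted per library (axis from 0) for C1qa, C1qb, C1qc, Cfb and C5ar2, with symbols for replicate numbers, a horizontal mark for the mean and bars for the SD. The C1q chains lie lower and Cfb higher in every LPS library, while for C5ar2 control replicate 1 lies among the LPS libraries.

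The C1q chains are encoded side by side within 18675 bases of chromosome 4 (136880129 to 136898803, all on the minus strand) and assemble into 1 protein. All 3 were sparse in control N9 cells and sparser with LPS. C1qa (ENSMUSG00000036887), the A chain, had 10, 11 and 8 counts in control cells and 0, 3 and 6 with LPS. C1qb (ENSMUSG00000036905), the B chain, had 11, 15 and 12 counts against 4, 2 and 5. C1qc (ENSMUSG00000036896), the C chain, had 23, 26 and 9 counts against 6, 4 and 7. For each chain every LPS library was below every control library, although control replicate 3 came close for C1qc, at 0.484 CPM against 0.426 CPM in the highest LPS library.

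The summed counts of control over LPS gave ratios of 2.93 for C1qa, 3.15 for C1qb and 3.11 for C1qc. Without LPS replicate 3, the ratio of LPS over control for C1qa moved from 0.341 to 0.172. The exact 95% intervals of the ratios of control over LPS, for counting error only, ran from 1.35 to 7.05, from 1.58 to 6.82 and from 1.78 to 5.69. Of the chains only C1qb passed the filter on low counts, through its control libraries alone (11, 15 and 12 counts, against 4, 2 and 5 with LPS). Its passing thus depended on the group in which it was higher. The log2 fold change of C1qb was -1.62 (95% confidence interval -2.71 to -0.53, edgeR adjusted p = 0.023). This call was lost without control replicate 2 (adjusted p = 0.0889), without LPS replicate 1 (0.0567), without LPS replicate 2 (0.106), without both control libraries that held hepatocyte-marker reads (0.286, at -1.47) and by DESeq2 (0.123). Fits that tested the others gave log2 fold changes from -2.46 to -0.97 for C1qa (adjusted p from 0.0533 to 0.342) and from -1.99 to -1.42 for C1qc (adjusted p from 0.00546 to 0.097). Without control replicates 2 and 3, C1qa stood at -1.62 (edgeR adjusted p = 0.342) and C1qc at -1.92 (edgeR adjusted p = 0.0613). Without the filter, C1qc and not C1qb was called (edgeR adjusted p = 0.0118 and 0.0679).

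The chains were also compared within libraries as counts per kb. In control cells the ratio of C1qa to C1qb was 0.951, 0.767 and 0.697, and that of C1qc to C1qb was 1.18, 0.977 and 0.423, the last in control replicate 3. With LPS, the ratio of C1qc to C1qb was 0.845, 1.13 and 0.789, which overlaps the control values (exact permutation test, two-sided, p = 0.9). C1qa, at 0 in LPS replicate 1, gave no such test. The C1q level was far below that of C3 in the same cells: in control cells C3 had 8.37 times the CPM per kb of C1qb, the highest of the 3 chains.

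The receptors C3ar1 and C5ar1 were abundant in both groups. C3ar1 (ENSMUSG00000040552, chromosome 6, 122847138 to 122856161, minus strand), the receptor of C3a, was at 123.5, 123.4 and 121.7 CPM in control cells and at 129.4, 130.8 and 114.0 CPM with LPS. The LPS libraries lay on both sides of the control libraries. Its log2 fold change was 0.02, with a 95% confidence interval from -0.09 to 0.14 (edgeR adjusted p = 0.797).

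C5ar1 (ENSMUSG00000049130, chromosome 7, 16246743 to 16259540, minus strand), the signalling receptor of C5a, was at 64.7, 59.2 and 60.9 CPM in control cells and at 80.5, 83.2 and 80.1 CPM with LPS, with no overlap. It rose 1.32-fold, a log2 fold change of 0.40 (95% confidence interval 0.29 to 0.51, edgeR adjusted p = 2.29e-05). Without control replicates 2 and 3 it stood at 0.33 (edgeR adjusted p = 0.00418). Within each library, C3ar1 counts per kb were 1.14, 1.24 and 1.19 times those of C5ar1 in control cells and 0.96, 0.938 and 0.85 times with LPS. The order of these receptors per length was thus reversed in every LPS library, with a difference of -0.38 in the log2 ratio. This reversal depends on the division by gene length: in counts, C3ar1 stayed above C5ar1 in every library. Those ratios were 1.91, 2.08 and 2 in control cells and 1.61, 1.57 and 1.42 with LPS. The exact permutation test on the log2 ratio gave p = 0.1, two-sided, the smallest that 3 against 3 libraries can give.

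C5ar2 (ENSMUSG00000074361, chromosome 7, 16234585 to 16244154, minus strand), known as the second C5a receptor, which does not couple to G proteins, lies 2588 bases from C5ar1. It had 19, 40 and 41 counts in control cells and 22, 17 and 17 with LPS. Control replicate 1 lay within the LPS range, and the higher counts were in the same control libraries that held hepatocyte-marker reads. Its log2 fold change was -0.69 (95% confidence interval -1.42 to 0.03, edgeR adjusted p = 0.135). It was -0.96 without control replicate 1, where it passed the test (edgeR adjusted p = 0.0379), and 0.06 without control replicates 2 and 3 (edgeR adjusted p = 0.961). The part of the liver-cell markers in this was not tested. Per kb, C5ar1 exceeded C5ar2 45.9-fold in control and 97.4-fold in LPS cells, but the ratio of C5ar2 to C5ar1 was 0.0124 in control replicate 1, within the LPS range of 0.00899 to 0.0125, and 0.0276 and 0.0261 in control replicates 2 and 3. The log2 ratio of C5ar2 to C5ar1 differed by -1.03 between groups (exact permutation test, two-sided, p = 0.2, where 0.1 is the smallest possible).

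**Figure D3:**
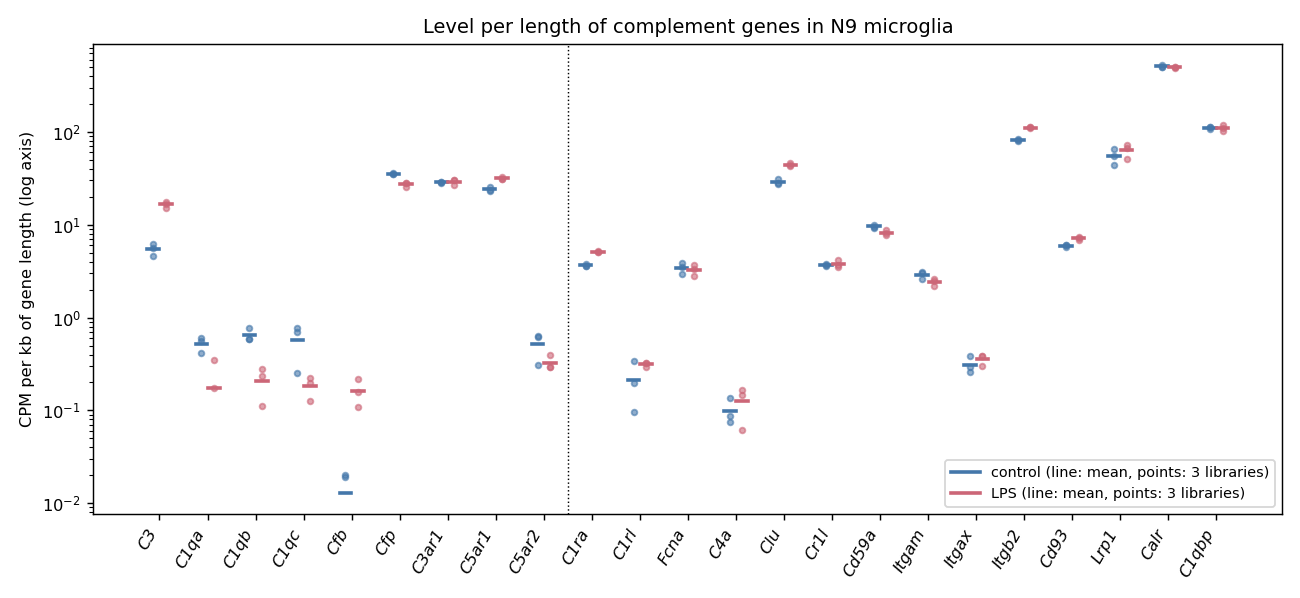
Level per length (CPM per kb of gene length, log axis) of the 9 complement genes, left of the dotted line, and of 14 other tested complement genes, with points for libraries and lines for group means. A library with 0 counts has no point. By group means, C1q, Cfb and C5ar2 lie at least 8.37-fold under C3 in both groups.

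Per length, control cells had most Cfp (35.4 ± 0.711 CPM per kb, SD, n = 3), then C3ar1 (28.5 ± 0.239), C5ar1 (24.0 ± 1.1) and C3 (5.48 ± 0.768), with no overlap between neighbours in this order. C1qb (0.655 ± 0.11), C1qc (0.57 ± 0.278), C1qa (0.525 ± 0.0981) and C5ar2 (0.523 ± 0.183) followed and were not apart beyond their spread. Cfb was last, at 0.013 ± 0.0113. In LPS cells, C5ar1 (31.6 ± 0.67), C3ar1 (29.0 ± 2.16) and Cfp (27.3 ± 1.5) led, the last 2 of these overlapping, and C3 had come within 2-fold of them (16.6 ± 1.24). The remaining 5 genes lay between 0.16 and 0.3245 CPM per kb of full gene length, the lowest being Cfb, which was at 0.782 CPM per kb of its unshared bases. Averaged over all libraries, 15.6% of tested genes had a higher level per length than Cfp and 38.2% than C3, against 93% than C1qb.

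**Figure D4:**
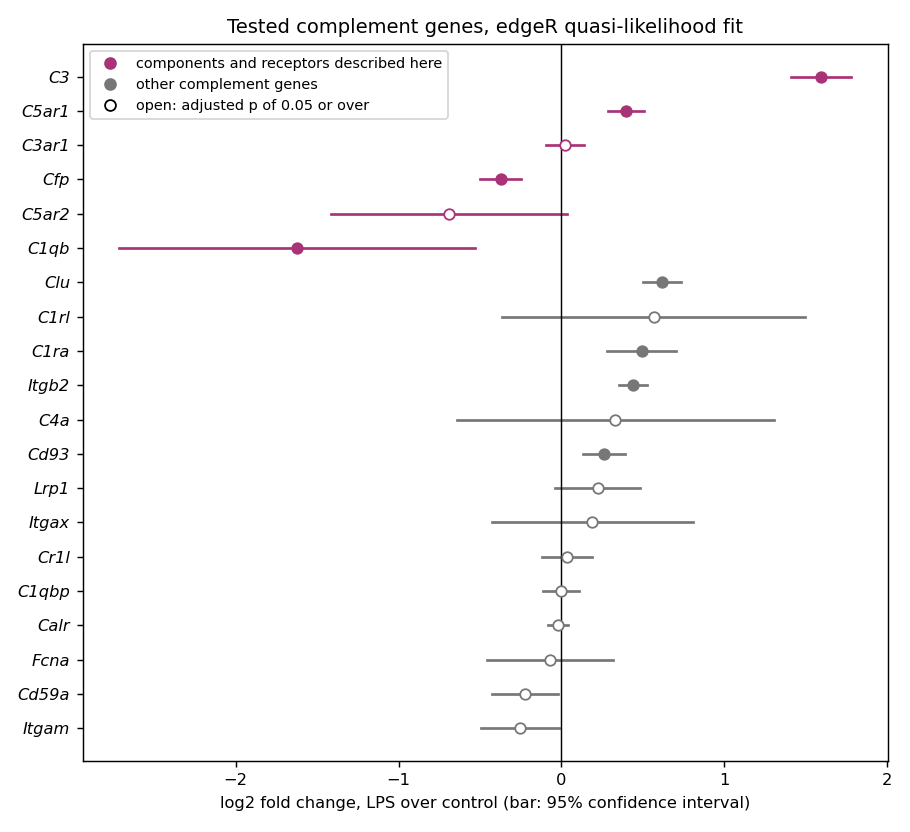
Log2 fold change of LPS over control with its 95% confidence interval for the 6 tested genes described here and 14 other tested complement genes. Filled symbols have an adjusted p under 0.05. C3 lies farthest to the right, at 1.59, and C1qb, at -1.62, has the widest interval of the called genes.

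The rest of the complement system was followed in a list of 48 further genes, of which 14 were tested, and 4 passed, all of them higher with LPS (C1ra, Clu, Itgb2 and Cd93), where 34.3% of all tested genes passed and 18.7% were higher. By edgeR 0 were called lower, with 2 lower at an unadjusted p under 0.05 (Cd59a and Itgam), and DESeq2 called 1 lower (Vtn). None was a DEG in edgeR's main test, while Vtn passed the DEG threshold by DESeq2 (-5.15, adjusted p = 0.0122) and in edgeR without the filter (-5.81, adjusted p = 0.00164). Another 22 of the 48 had at most 3 counts in every library, 10 of them 0 throughout, which allows each of these up to 3 counts, or from 0.161 to 0.19 CPM, per library.

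Among genes that start the cascade, C1ra, the protease that C1q carries, was at 10.7, 11.2 and 10.7 CPM in control cells and 15.2, 15.5 and 15.3 CPM with LPS. It rose by 0.49 on the log2 scale (95% confidence interval 0.28 to 0.70, edgeR adjusted p = 0.00115). C1ra has a close paralog, C1rb, with 3 to 9 counts, and reads could be divided between them. C1s1, the protease that C1r activates, had 5, 9 and 7 counts against 16, 9 and 19, and was not called in 8 of the 9 fits that tested it (adjusted p from 0.0569 to 0.21 in these 8, and 0.0409 by edgeR without LPS replicate 2). Ficolin A (Fcna), a lectin-pathway pattern receptor, had 69, 84 and 99 counts against 79, 63 and 76. The mannose-binding lectin Mbl1 was at 0 in every library and Mbl2 had 2 counts in 1 of them.

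Other genes that form or activate C3-cleaving enzymes, and that of C5, were sparse. C2, C4a, C4b, Cfd and Hc, the mouse gene of C5, had at most 19 counts in any library, and C4a, the most abundant of them per full gene length over all libraries, had 8, 15 and 10 against 6, 15 and 17. C2 shares 46.9% of its exon bases with other gene models, and per kb of the rest it was at 0.0821 CPM in control and 0.21 CPM in LPS cells. C4a and C4b are close paralogs whose reads could be shared. Of the terminal components none was tested: C8g had 5 to 12 counts, and C6, C7, C8a, C8b and C9 had at most 1 in any library.

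Among regulators in plasma, clusterin (Clu), known to bind terminal complexes, rose from 96.2, 106 and 95.1 CPM to 160, 147 and 150 CPM, by 0.62 on the log2 scale (95% confidence interval 0.50 to 0.74, edgeR adjusted p = 3.85e-07). Vtn, encoding vitronectin, had 1, 5 and 16 counts against 0, 0 and 0. Its reads, like the hepatocyte markers, lay mainly in control replicates 2 and 3.

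Of 8 membrane regulators 2 were tested, and neither passed. Cd59a, which blocks the terminal pore, was the most abundant of them per length. Every LPS library lay below every control library, and the log2 fold change was -0.22 (95% confidence interval -0.43 to -0.02, edgeR adjusted p = 0.0842). Cr1l, the rodent regulator that limits C3 deposition on cells, was at 0.04 (95% confidence interval -0.12 to 0.19, edgeR adjusted p = 0.749). Cd55 had 1 count in 1 library and 0 in the others.

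Among receptors for C3 fragments and C1q, Itgb2, the beta chain shared by complement receptors 3 and 4, had 246, 252 and 256 CPM in control cells and 345, 342 and 333 CPM with LPS. It rose by 0.44 on the log2 scale (95% confidence interval 0.35 to 0.52, edgeR adjusted p = 6.57e-07). Its alpha partners did not pass: Itgam had a log2 fold change of -0.26 (edgeR adjusted p = 0.0957) and Itgax, at 22 to 34 counts, was at 0.19 (edgeR adjusted p = 0.659). Cd93, a membrane protein once described as a C1q receptor, rose by 0.26 (95% confidence interval 0.13 to 0.39, edgeR adjusted p = 0.00333). Calr, encoding calreticulin, a chaperone that also binds C1q and the most abundant gene of the list, was at -0.02 (95% confidence interval -0.08 to 0.04, edgeR adjusted p = 0.63). Lrp1, an endocytic receptor that pairs with calreticulin at the cell surface, was at 776.1, 1148 and 964.6 CPM in control cells and 904.4, 1189 and 1280 CPM with LPS. Its groups overlapped, and its log2 fold change was 0.22 (95% confidence interval -0.04 to 0.48, edgeR adjusted p = 0.18). Lrp1 passed edgeR's test, higher with LPS, without control replicates 2 and 3 (0.54, adjusted p = 0.0103), without control replicate 2 (0.36, adjusted p = 0.0253), without LPS replicate 1 (0.36, adjusted p = 0.0196), with a replicate block (0.23, adjusted p = 0.00186) and without the filter (0.22, adjusted p = 4.02e-08). It did not pass without the filter once robust dispersion was added (adjusted p = 0.589), with robust dispersion alone (0.517), by DESeq2 (0.559) or in the other fits. Vsig4 was at 0 in every library and Cr2 had at most 1 count.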

How the data were processed

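RNA-seq of 3 control and 3 LPS-stimulated N9 microglia samples was analysed, grouped by the labels. The authors deposited raw read counts per gene for 54532 genes. The submitters' processing notes name featureCounts 1.5.0-p3 and mm10, and the aligner and the use of strand are not given in the sources used here. A second deposited table with the authors' own comparison was not used. Gene lengths are those the authors deposited with the counts.

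Counts were tested with edgeR 4.0.16 (R 4.3.3) by the quasi-likelihood test, with TMM normalization, filterByExpr, a prior count of 0.125 and Benjamini-Hochberg adjustment over all 12296 genes tested, without a replicate term. CPM use effective library sizes. Alternatives were DESeq2 1.42.0, RLE factors, no filter, a mean of at least 10 counts, robust dispersion, glmTreat, a replicate block, and each library left out. No filter with robust dispersion, and leaving out control replicates 2 and 3, were chosen after seeing the data. The main fit and DESeq2 were tested on simulated data, in which only well-counted genes were changed, by folds larger than those of Cfp and C5ar1. That test does not cover the sparse genes. Intervals on summed counts are exact binomial ones at 95%, and reads without molecular identifiers make these cover counting error only.

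Genes named are all 9 members, every further complement gene that passed and the most abundant per role, and the 3 genes nearest to C3. No neighbours were sought for C1qa, which had 0 counts in a library. A further complement gene is not reported here. Others were named after their values were seen. Members and lists were chosen with earlier results of these data known. Exons came from GENCODE release M21, promoter windows from RefSeq on GRCm38.p6.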

Additional observations from a re-analysis of the deposited data

How the results depend on the processing

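The calls for C3, Cfp and C5ar1 held in 14 of 14 alternative fits each, leaving aside glmTreat, and C3ar1 had an adjusted p from 0.236 to 0.956 in the same fits. Fewer than 50 reads per library limit what can be said of the C1q chains, Cfb and C5ar2. With DESeq2, 1 of the 9 genes was called lower in place of 2, and 1 of the other complement genes (Vtn) in place of 0. Over all genes, DESeq2 called 1615 of 13916 lower. Without the filter on low counts, 91 DEG were lower, or 76 with robust dispersion added, in place of 31, and 1 other complement gene, again Vtn, was lower in both fits. Of all 22311 genes tested there, 2067 were called lower, or 2063 with robust dispersion. The prior degrees of freedom were infinite without the filter, so p-values of that fit rest on a trend over genes and not on a gene's own spread. Among them are the values given without the filter for Cfb, C1qb, C1qc, Vtn and Lrp1, those with robust dispersion aside. glmTreat, with 1.5 on the log2 scale as its null bound, called 181 genes higher and 2 lower by adjusted p, and so as DEG, in place of 2294 and 1927 by adjusted p. It called 0 of the 6 tested genes and 0 of the 14 others, with 0 and 0 at an unadjusted p under 0.05, and a lowest unadjusted p of 0.0513 for the 6. edgeR's main test called 4 and 4 of these, and DESeq2 is given above.

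Leaving out each library in turn gave 1 to 3 of the 9 genes called lower, beside 1546 to 1929 of the 12495 to 12560 genes tested. There were 38 to 62 lower DEG. The log2 difference in the ratio of C1qc to C1qb ran from -0.24, without control replicate 3, to 0.50. C3ar1 ran from -0.014, without LPS replicate 2, to 0.083, without LPS replicate 3, and was also below 0 without LPS replicate 1 (-0.0058). Leaving out control replicates 2 and 3, where the lone control library is assumed to vary like the LPS libraries, gave 1151 genes lower, 1 of the 9 genes lower, 0 of the other complement genes lower and a log2 fold change of 0.06 for C5ar2. At an unadjusted p under 0.05, edgeR put 0 of those others lower. The causes of these shifts were not tested.

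The replicate numbers did not pair the samples: the deviations of same-numbered libraries correlated at 0.135, 0.058 and -0.004. The fit with a replicate block gave a log2 fold change of 1.60 for C3, called 2 of the 9 genes higher and 2 lower, called 5 of the other complement genes higher in place of 4 (Lrp1 was gained, adjusted p = 0.00186 against 0.18), and called 2454 genes higher and 2020 lower.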
